A study of Mus musculus with 3 samples.

Results

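The genes described here are 10 snoRNA host genes, Gas5, Zfas1, Snhg1, Snhg3, Snhg5, Snhg6, Snhg8, Snhg12, Epb41l4aos and Dancr, of 55536 annotated mouse genes. They were chosen by name, and each symbol matched 1 gene identifier of the transcript tables. The data are 3 libraries of total RNA, depleted of ribosomal RNA, from the cytosol of macrophages grown in culture from bone marrow of C57BL/6J mice. All libraries had the same treatment: Lipid A, the part of bacterial lipopolysaccharide that Tlr4 senses, at 100 ng/ml for 12 hours, then 12 hours after it was washed out, then Lipid A at 100 ng/ml again for 40 minutes. They form 1 group of biological replicates 1, 2 and 3, and cells without Lipid A, cells stimulated once and other fractions were not analysed here. The labels give no genotype beyond the strain, and no sex or age. The libraries share a donor label, so the spread between them may be that of cultures rather than of animals. The values are therefore levels under 1 treatment and their spread, not responses.

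A snoRNA host gene carries small nucleolar RNAs in its introns. Splicing releases the introns, the snoRNAs are trimmed from them and stay in the nucleolus, where box C/D snoRNAs guide the methylation of ribosomal RNA and box H/ACA snoRNAs guide its pseudouridylation. The exons are joined into a long RNA that is exported, and for several of these hosts that RNA is known to be translated for a short stretch and then degraded by nonsense-mediated decay. Many host genes start transcription at a run of pyrimidines, as ribosomal protein genes do.

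Annotated snoRNA genes lay inside every host gene. There were 34 of them on the strand of the host, at 32 distinct places, and all 34 fell within introns of the transcript of their host that was most abundant in the alignment-based table. In the read-based table the most abundant transcript of Snhg1 was another, whose first exon shares 60 bases with the snoRNA gene Gm25855. Gas5 held 10 of the annotations at 9 places, Snhg1 held 8, Snhg12 held 5 at 4 places and Zfas1 held 3. Snhg3 and Snhg5 held 2 each, and Snhg6, Snhg8, Epb41l4aos and Dancr held 1 each. The hosts differed in kind. All 10 annotations in Gas5, all 8 in Snhg1, all 3 in Zfas1, both in Snhg5 and that in Snhg6 ended in the letters CTGA, the box D, within the last 20 bases, whereas the snoRNA genes in Snhg3, Snhg8, Epb41l4aos and Dancr had ACA 3 bases before the end instead. Over all hosts 61.8% of the snoRNA genes held both CTGA there and the box C letters TGATGA, against 23.3% of all 1507 annotated snoRNAs. ACA 3 bases before the end was found in 26.5%, against 18.3% of all. The search used the RNA strand and exact letters, so snoRNAs with variant boxes were not counted. The sequences below, in DNA letters from annotation M21 of the mm10 build, show 1 box C/D snoRNA of Gas5 at chr1:161038082-161038158 with boxes C and D in capitals, and Snord22 of Snhg1 at chr19:8725866-8725991 with box D in capitals. Snord22 has no TGATGA.
Snord47: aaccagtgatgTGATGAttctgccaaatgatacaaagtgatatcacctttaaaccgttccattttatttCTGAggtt
Snord22: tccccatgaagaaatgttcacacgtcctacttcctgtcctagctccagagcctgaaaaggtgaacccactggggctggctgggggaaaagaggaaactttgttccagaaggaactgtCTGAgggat

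Snhg3 holds a pair of near-identical H/ACA snoRNAs of 205 bases that act in the processing of ribosomal RNA, and they took most of the snoRNA reads described further on. Snora73a lies at chr4:132352775-132352979 and Snora73b at chr4:132352322-132352526, both on the minus strand. They share 198 of 205 bases (96.6%). The 7 differences, in capitals below and counted from 1 at the 5′ end with the base of Snora73a first, are G3A, G54A, A111G, T164C, G203A, T204A and T205A. How reads were split between these copies is therefore uncertain, and their sum is used below.
Snora73a: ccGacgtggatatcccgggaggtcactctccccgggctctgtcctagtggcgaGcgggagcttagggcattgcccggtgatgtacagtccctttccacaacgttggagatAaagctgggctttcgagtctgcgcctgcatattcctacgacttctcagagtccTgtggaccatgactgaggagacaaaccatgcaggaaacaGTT
Snora73b: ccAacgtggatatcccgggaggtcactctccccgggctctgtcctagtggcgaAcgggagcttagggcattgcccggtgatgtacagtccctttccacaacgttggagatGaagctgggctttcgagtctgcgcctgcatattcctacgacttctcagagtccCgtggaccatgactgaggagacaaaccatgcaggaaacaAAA

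RefSeq start windows on GRCm38.p6, the same assembly as mm10, were found for 8 of the 10 hosts, and not for Snhg6 and Epb41l4aos. A run of at least 5 C or T bases, with at least 5 of them between 5 bases before and 10 bases after the start on the transcribed strand, was present in 5 of the 8, namely Gas5, Snhg8, Snhg12, Snhg1 and Snhg3, and absent by this rule from Zfas1, Snhg5 and Dancr. The same run was found in 26.4% of all 32851 windows and in 44.4% of 63 windows of ribosomal protein genes (symbols of Rpl or Rps and a number). These shares are per window, whereas the 5 of 8 is per host, and Gas5 had 2 windows. The rule found no run in most windows of ribosomal protein genes, so absence by this rule does not exclude a run at the start. Such a match is a description of letters only. In Snhg5 and Dancr a run of at least 5 C or T bases lay further in, within the 20 bases from the RefSeq start. Too few of its bases fell inside the window for it to count. The RefSeq start lay 0 bases from that of the most abundant transcript for Zfas1, Snhg12 and Snhg3, 3 bases for Gas5, 7 for Snhg5, 12 for Snhg1, 17 for Dancr and 68 for Snhg8. The lines below give the 10 bases before and the 20 bases from the start, with the run in capitals, for the 2 most abundant hosts and for the hosts with the longest runs, 9 bases each, at chr1:161035156-161035185, chr2:167062924-167062953, chr4:132308668-132308697 and chr19:8723477-8723506, all on the plus strand.
Gas5: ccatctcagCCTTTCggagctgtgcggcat
Zfas1: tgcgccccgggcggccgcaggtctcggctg
Snhg12: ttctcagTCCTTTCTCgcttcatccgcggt
Snhg1: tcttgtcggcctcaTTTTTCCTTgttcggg

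The libraries held 38197192 to 46327891 expected counts on annotated genes, and differed from each other by more than sampling noise (chi-square of 44.8 to 113 per degree of freedom over genes with at least 10 counts in both). At these depths 3 counts, the upper limit that a count of 0 allows, were 0.0648 to 0.0785 CPM, for counting error only. Levels are given as TPM, counts divided by effective length and scaled to a fixed total per library, so genes can be compared. However, the 7SL RNA genes Rn7s1 and Rn7s2 held 57.9% ± 4.45 of TPM (SD, n = 3), so a TPM is a share of a total made mostly of that RNA. All 8 macrophage markers, Adgre1, Cd14, Cd68, Csf1r, Fcgr1, Itgam, Lyz2 and Mertk, were detected, with a summed level of 4071 to 5638 TPM. Of 5 neutrophil markers S100a8 and S100a9 were detected and Ly6g was at 0, with a summed level of 6.91 to 9.45 TPM, and none of 16 markers of T, NK, B, dendritic, stromal and erythroid cells was detected. The part of other cells in the host gene levels was not tested.

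In these macrophages 9 of the 10 host genes were detected, that is, reached 1 TPM in each of the 3 libraries, and Dancr was not. The same threshold was met by 17.4% of all annotated genes and by 1.88% of the 13374 annotated long non-coding genes. The median level of the 10 hosts was 3.08 as mean log2(TPM + 1), a scale that shrinks differences between weakly expressed genes. It was 3.22 over the 9648 detected genes and 2.13 over the 251 detected long non-coding genes. Together the hosts held 181, 168 and 130 TPM in replicates 1, 2 and 3, and 0.0107%, 0.0110% and 0.00895% of the expected counts. In such bulk samples fewer cells that make an RNA and less of it per cell cannot be told apart.

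Zfas1 and Gas5 led. Zfas1 (ENSMUSG00000074578.13, chromosome 2, 167062934 to 167065862, plus strand), which carries Snord12, had 64.2, 52.1 and 34.1 TPM in replicates 1, 2 and 3, or 50.1 ± 15.1 (SD, n = 3). Replicate 3 was the low library, and the highest value was 1.88 times the lowest. Gas5 (ENSMUSG00000053332.13, chromosome 1, 161034422 to 161038539, plus strand), a host named for its rise in growth-arrested cells, had 51.5, 49.0 and 42.8 TPM, or 47.8 ± 4.50. Its libraries lay closer together, at a ratio of 1.20 between the extremes. Zfas1 ranked 12 and Gas5 ranked 14 among the 13374 long non-coding genes. Their ranges overlapped, and Zfas1 exceeded Gas5 by 0.03 ± 0.32 (SD of the within-library log2 difference) with the sign positive in 2 of 3 libraries, so these data do not order them.

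Snhg6 and Snhg8 followed at lower levels. Snhg6 (ENSMUSG00000098234.7, chromosome 1, 9941959 to 9944118, minus strand), the host of Snord87, had 21.4, 27.5 and 17.8 TPM, or 22.2 ± 4.92, with the highest value in replicate 2. It lay below Gas5 in every library, by 1.09 ± 0.24 on the log2 scale, and the ranges did not overlap. Snhg8 (ENSMUSG00000104960.1, chromosome 3, 123507552 to 123508404, minus strand), the host of Snora24, had 14.0, 9.52 and 8.95 TPM, or 10.8 ± 2.77, with the highest value in replicate 1. It lay below Snhg6 by 0.98 ± 0.43, again without overlap. For both gaps the exact two-sided sign-flip p was 0.25, the smallest that 3 libraries allow.

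Among the next 5 hosts the ranges of neighbours overlapped in the gene tables. Snhg12 (ENSMUSG00000086290.9, chromosome 4, 132308623 to 132311024, plus strand), which carries Snora44, Snora61, Snora16a and Snord99, had 8.51, 9.02 and 6.85 TPM, or 8.13 ± 1.13. Snhg1 (ENSMUSG00000108414.1, chromosome 19, 8723475 to 8726443, plus strand), the host of Snord22, had 7.18, 7.06 and 6.48 TPM, or 6.91 ± 0.374, with the lowest coefficient of variation of the 10 (5.42%). Epb41l4aos (ENSMUSG00000087590.2, chromosome 18, 33794892 to 33795986, plus strand) had 5.33, 7.96 and 5.83 TPM, or 6.37 ± 1.40, with replicate 2 standing above the other libraries. Only 61, 129 and 76 expected counts stand behind these values. Snhg3 (ENSMUSG00000085241.7, chromosome 4, 132348014 to 132353686, minus strand) had 5.41, 3.28 and 4.15 TPM, or 4.28 ± 1.07, from 65.1, 58.1 and 60.2 counts, with replicate 2 the lowest. Snhg5 (ENSMUSG00000097195.9, chromosome 9, 88521050 to 88522929, minus strand), the host of Snord50a and Snord50b, had 3.58, 2.53 and 2.74 TPM, or 2.95 ± 0.556. The log2 differences between neighbours here ran from 0.12 ± 0.26 for Snhg1 over Epb41l4aos to 0.49 ± 0.55 for Epb41l4aos over Snhg3, with exact two-sided sign-flip p-values of 0.25 to 0.75. Snhg8 over Snhg12, at 0.36 ± 0.29, did not separate either.

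Dancr (ENSMUSG00000106943.2, chromosome 5, 74093060 to 74095406, plus strand), known as a repressor of differentiation in other cells and the host of Snora26, was near the floor. It had 3, 2 and 6 expected counts and 0.10, 0.07 and 0.05 TPM, so its highest TPM fell in a library with fewer counts than replicate 3. The deposited effective length of the gene was 553, 357 and 1852 bases, since it follows the transcripts to which those few counts were assigned. The read-based table, made from the reads without an alignment file, gave 19.0, 3.00 and 20.1 counts. Both tables had the lowest count in replicate 2 and a level under 1 TPM in every library. Snhg5 exceeded Dancr by 1.87 ± 0.17 on the log2(TPM + 1) scale, and their ranges did not overlap. In all, 3 of 9 neighbouring pairs separated. With TPM rescaled to a total over nuclear protein-coding genes, which leaves out 7SL RNA, 5 did, Snhg8 over Snhg12 and Snhg3 over Snhg5 in addition. With a library left out 5 or 6 did, which ranges over fewer values favour. By the read-based values 4 pairs separated, Snhg6 over Snhg8, Epb41l4aos over Snhg3, Snhg3 over Snhg5 and Snhg5 over Dancr. There Gas5 ranked above Zfas1, and Zfas1 over Snhg6, at 1.08 ± 0.39, did not separate.

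**Figure D1:**
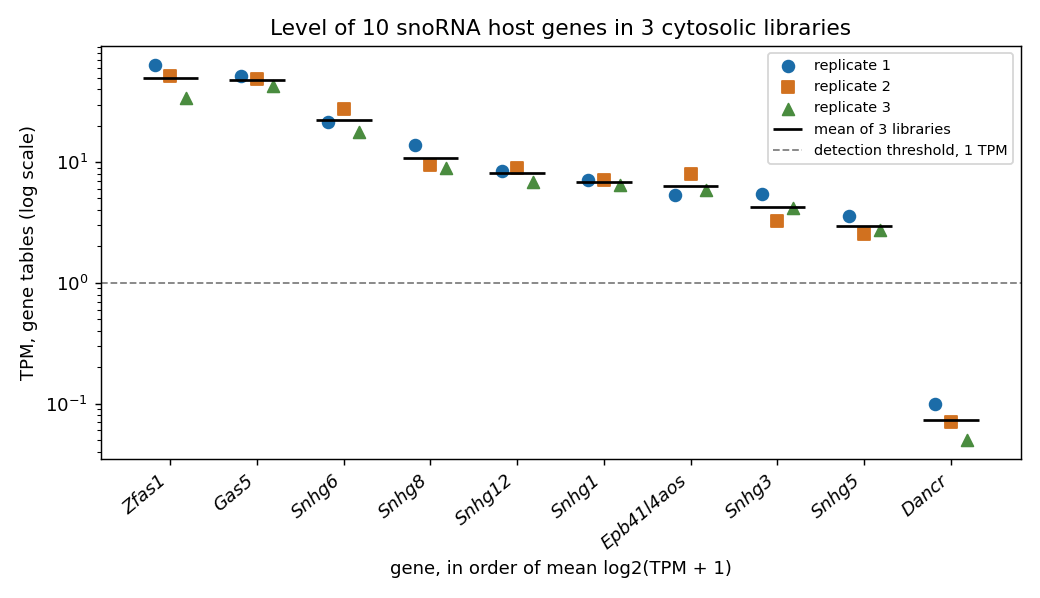
TPM of the 10 snoRNA host genes in the gene tables on a log axis, with 1 point per library, a bar at the mean of the 3 libraries and a dashed line at 1 TPM. Zfas1 and Gas5 lie highest with overlapping points, Snhg6 and Snhg8 stand apart below them, 5 hosts follow between 2.53 and 9.02 TPM, and Dancr lies at 0.05 to 0.10 TPM.

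The hosts were set beside genes that start close by on the other strand, since a shared start region gives a partner that the choice of the hosts did not touch. There were 4 such pairs with starts within 1000 bases, and their levels differed in both directions. Gas5 and Zbtb37, a zinc finger gene, start 427 bases apart, and Zbtb37 had 1.36, 1.07 and 1.15 TPM. Gas5 was higher by 4.47 ± 0.12 on the log2(TPM + 1) scale (SD, 3 of 3 libraries). Zfas1 and Znfx1, which encodes an RNA helicase of antiviral defence, start 81 bases apart, and Znfx1 had 191, 134 and 149 TPM, or 158 ± 29.7. Zfas1 was lower, with a difference of -1.67 ± 0.39 (3 of 3 libraries). Snhg1 and Slc3a2, which encodes the heavy chain of amino acid transporters, start 106 bases apart, and Slc3a2 had 169, 163 and 135 TPM. Snhg1 was lower, with a difference of -4.30 ± 0.11 (3 of 3 libraries). Gm43416, 91 bases from Dancr, was listed at 0 in each library. The median over the 4 pairs was -0.78, which means little for pairs this unlike. With 4 values and 3 libraries no test was made.

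Some hosts share bases with other genes, and no source used here says whether the counting used strand. Gas5 overlaps Zbtb37 over 428 bases and Zfas1 overlaps Znfx1 over 82 bases, both on opposite strands. Snhg6 overlaps Mcmdc2 over 127 bases on the opposite strand, and Mcmdc2 had 11 to 21 counts. Snhg3 shares 5592 bases of its span with Rcc1 on the same strand, and Rcc1 had 287 to 322 counts. Without strand, reads of bases that exons on opposite strands share cannot be told apart. For Snhg3 and Rcc1, on the same strand, strand would not separate them either. These overlaps are of gene spans, introns included, and shared exon bases were not counted.

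A spliced transcript led each host in most libraries. The leading transcripts were 430 to 1004 bases long with 3 to 12 exons. Zfas1-205, with 5 exons, had 91.7% ± 4.64 of the TPM of its gene in the alignment-based table (SD, n = 3). Gas5-224, with 12 exons, had 69.9% ± 1.77 and Gas5-210, with 11 exons, had 21.3% ± 5.46. Snhg6-203 had 82.0% ± 1.66 and Snhg6-204 15.9% ± 1.16. Gas5-210 had 21.2%, 26.7% and 15.8% in replicates 1, 2 and 3. Snhg8-201 had 91.8% ± 3.26, Snhg12-206 90.9% ± 6.02, Epb41l4aos-201 92.5% ± 2.35 and Snhg3-204 90.2% ± 6.67. Snhg5 was divided between Snhg5-201 at 51.5% ± 6.31 and Snhg5-202 at 34.3% ± 8.91. In replicate 1 these were close, at 1.63 and 1.59 TPM. For Dancr, with its few counts, Dancr-203 held 0.09, 0.07 and 0 TPM and the single-exon Dancr-201 held 0.01, 0 and 0.03 TPM. The read-based table named the same leading transcript for 9 of the 10 hosts by the mean over libraries, for all 10 in replicate 2, for 9 in replicate 1 and for 8 in replicate 3.

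Snhg1 was the exception. In the alignment-based table Snhg1-211 led with 6.30, 6.57 and 4.45 TPM in replicates 1, 2 and 3, and Snhg1-207 was listed at 0 in each. In the read-based table Snhg1-207 had 1.84, 1.44 and 1.09 TPM and Snhg1-211 had 0.521, 1.62 and 0.635 TPM, so that Snhg1-207 led in replicates 1 and 3. It took 52.2% ± 13.3 of the TPM of the gene there, against 31.5% ± 15.5 for Snhg1-211. The transcripts share their last 574 bases and differ in the first exon. That of Snhg1-211, at chr19:8723475-8723506, has 32 bases and holds the pyrimidine run shown above. That of Snhg1-207, at chr19:8724005-8724189, has 185 bases, begins inside what is an intron of Snhg1-211, and is the one that shares bases with Gm25855. The sequences below show these exons on the plus strand, with bases that lie in no exon of the other transcript in capitals. Reads over the bases in capitals, or over the junctions beside them, are what can separate the transcripts, and for Snhg1-211 there are 32 such bases.
Snhg1-211: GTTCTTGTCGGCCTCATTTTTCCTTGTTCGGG
Snhg1-207: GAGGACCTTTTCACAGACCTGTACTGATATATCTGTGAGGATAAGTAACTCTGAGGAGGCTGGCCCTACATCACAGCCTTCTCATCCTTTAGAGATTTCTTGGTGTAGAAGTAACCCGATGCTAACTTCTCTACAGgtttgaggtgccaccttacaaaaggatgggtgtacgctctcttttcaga

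**Figure D2:**
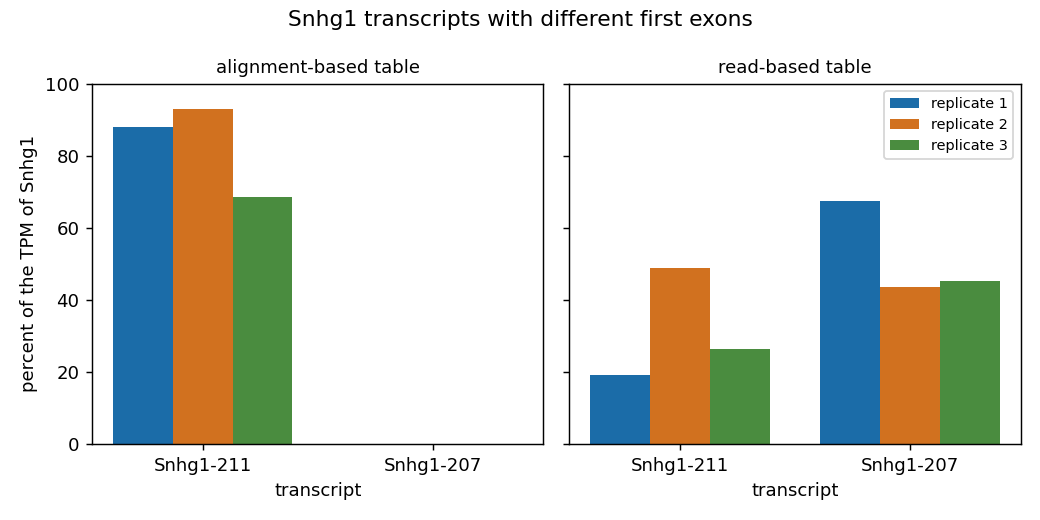
Share of the TPM of Snhg1 taken by its transcripts Snhg1-211 and Snhg1-207, in percent, in the alignment-based table (left) and the read-based table (right), with 1 bar per library. Snhg1-207 has no bar on the left, where it is listed at 0, and is higher than Snhg1-211 on the right in replicates 1 and 3.

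The leading transcripts have short reading frames. The frame from the first ATG ran for 1 codon in Snhg8-201 up to 68 codons in Dancr-203, the stop not counted, and the longest frame in any of the 10 was 79 codons, in Zfas1-205. An exon junction more than 50 bases after the stop of the first frame, the arrangement by which the exon junction complex marks an RNA for nonsense-mediated decay, was present in 8 of the 10 leading transcripts and absent from Snhg3-204 and Dancr-203. By the same rule it was present in 73.8% of the 191 detected long non-coding genes whose leading transcript has 2 or more exons, so the share of the hosts lay near that of such genes. Gas5-224 had 7 such junctions, Snhg1-211 had 5, Zfas1-205 and Snhg5-201 had 4 each and Snhg12-206 had 3. These counts were read from the sequences, and decay was not measured. All 16 listed genes of nonsense-mediated decay and the exon junction complex were detected, at a median of 3.38 (log2). They were led by Eif4a3 at 29.5 ± 1.97 TPM, Rnps1 at 20.1 ± 2.06 and Magoh at 19.0 ± 0.734.

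Few of the snoRNAs had counts. Of the 34 snoRNA genes in the hosts 4 had 1 expected count or more in all 3 libraries by the alignment-based gene tables, against 1.92% of all 1507 annotated snoRNA genes, and 29 had no count in any library. All 34 are shorter than the size range of 250 to 400 bases that the labels give for these libraries. Of the 24 under 120 bases none had a count in all libraries (0.0% of all 588 of that length did), and of the 10 of 120 bases or more 4 did (3.16% of all 919 of that length did). The deposited effective length was 0 in all libraries for 25 of the 34 and at most 24.4 bases for the others. The read-based table gave 5 of the 34 a count of 1 or more in all libraries. They were Snora73a, Snora73b, Snord22, Gm23639 and, of those under 120 bases, Gm22357 in Gas5, with 7.79, 3.27 and 5.41 counts over its 83 bases. A count of 0 thus says that a table assigned no read to the gene, and gives no level of the snoRNA. Where counts were assigned, TPM was erratic: Snord22 had 70.0, 25.0 and 55.0 counts but 1226, 0 and 0 TPM. Levels of snoRNAs are therefore given as counts.

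**Figure D3:**
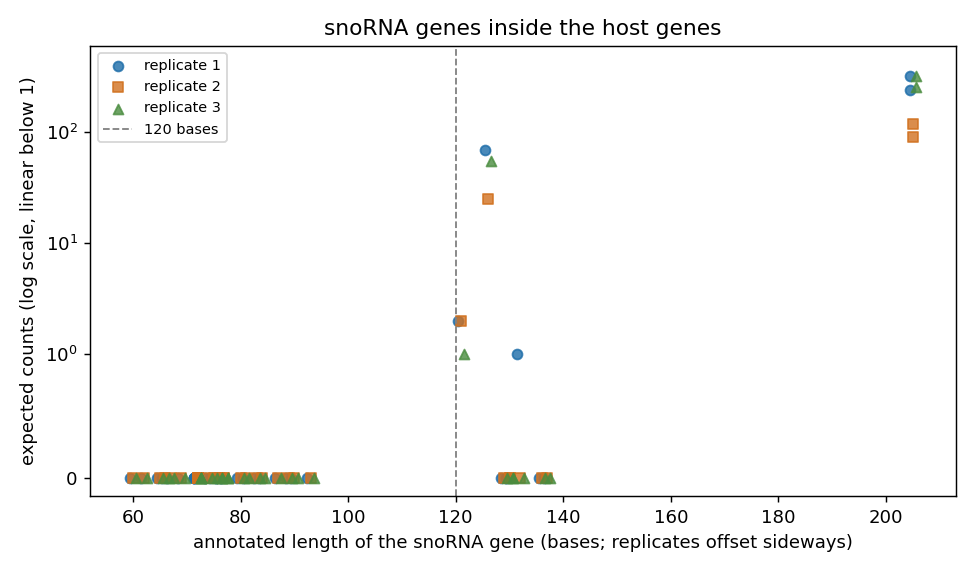
Expected counts in the alignment-based gene tables of the 34 snoRNA genes inside the hosts against their annotated length in bases, with 1 point per gene and library and a dashed line at 120 bases; the count axis is logarithmic above 1 and linear below, and replicates are offset sideways. Points at 25.0 counts or more are those of Snora73a and Snora73b at 205 bases and of Snord22 at 126 bases, and every gene under 120 bases lies at 0 in these gene tables.

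Snora73a and Snora73b, and Snord22, varied more between libraries than their hosts. Snora73a had 241, 91.7 and 258 expected counts in replicates 1, 2 and 3, and Snora73b had 324, 120 and 322. Their sum was 565, 211 and 581, while Snhg3 itself had 65.1, 58.1 and 60.2. The ratio of snoRNA to host counts was 8.69, 3.64 and 9.65, with the low value in replicate 2. Snord22 had 0.307, 0.0939 and 0.236 counts per count of Snhg1, again lowest in replicate 2. These ratios are taken within a library and do not depend on its depth. With counts scaled by TMM library sizes the highest of the 3 libraries was 3.24 times the lowest for the Snora73 sum and 3.39 times for Snord22, against 1.36 for Snhg3 and 1.04 for Snhg1. Counts of mature snoRNA and of unspliced RNA that holds the snoRNA cannot be told apart in these tables. For Snora73a and Snora73b such RNA could be of Snhg3 or of Rcc1, whose span on the same strand also holds them. Rcc1 had 295, 322 and 287 counts in replicates 1, 2 and 3. Snora26 in Dancr had 2, 2 and 1 counts and Gm23639 in Epb41l4aos 1, 0 and 0.

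The same library was low in some RNAs known to stay in the nucleus, and not equally in all that were listed. The deviation of a library was taken as its log2 TPM minus the mean of the other libraries, centred so that the median of detected nuclear protein-coding genes is 0. Malat1 deviated by 0.43, -1.57 and 1.13 in replicates 1, 2 and 3, and Neat1 by 0.99, -2.32 and 1.32. In TPM Snora73a deviated by 0.74, -1.84 and 1.09, and Snora73b by 0.81, -1.83 and 1.01, with the split between these copies uncertain. Their summed counts deviated by 0.86, -1.68 and 0.82 with TMM. Each of these RNAs was lowest in replicate 2. Of the other 6 listed nuclear RNAs Firre deviated by 0.51, -1.84 and 1.32, and Tug1 by 0.24, -0.26 and 0.01, the value in replicate 2 lying inside the 10th percentile of detected genes given below. On counts with TMM, Kcnq1ot1, which was under 1 TPM in each library, deviated by -1.82 in replicate 2 and Airn by -0.75, and Meg3 and Miat had no counts. On this centred TPM scale none of the 10 hosts deviated by more than 1 in any library, a size passed by 0.964%, 1.74% and 1.18% of detected genes in replicates 1, 2 and 3. On other scales Dancr passed that size, on its few counts: with TMM it deviated by -0.03, -1.18 and 1.21, with DESeq2 size factors by -0.03, -1.19 and 1.22, and in the read-based table by 1.45, -2.59 and 1.12. How much nuclear RNA each cytosolic library held, and its part in the host values, was not tested.

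The SD of the log2(TPM + 1) level between libraries had a median of 0.23 over the 10 hosts and 0.16 over detected genes. Over the 251 detected long non-coding genes it was 0.27, above that of the hosts. The median deviation of the hosts was 0.07, 0.19 and -0.21 in replicates 1, 2 and 3, with 7 of 10 above 0 in replicate 2 and 9 of 10 below 0 in replicate 3. Over detected genes the median was 0.0033, -0.0046 and 0.0012, so these lay about evenly on both sides of 0. The medians of the hosts, and the counts above and below 0, depended on the scale. In replicate 2 the median was 0.012 with TMM, 0.0026 with DESeq2 size factors, 0.32 in the read-based table and 0.20 over the hosts with at least 100 counts. In replicate 3 it was -0.054, -0.048, -0.18 and -0.27 in the same order. The 10th and 90th percentile over detected genes were -0.25 and 0.30 in replicate 1, -0.35 and 0.26 in replicate 2 and -0.28 and 0.29 in replicate 3, and 6, 5 and 3 of the 10 hosts lay outside them, where 20.0% of detected genes lie by construction. Zfas1 was low in replicate 3, at -0.68, and at 0.37 and 0.29 in the others. Snhg6 was high in replicate 2, at 0.63, as was Epb41l4aos at 0.65, and both were below 0 in the other libraries. Snhg12 was at 0.38 and Gas5 at 0.20 in replicate 2, and both were below 0 in replicate 3. Snhg3 and Snhg5 went the other way, at -0.39 and -0.17 in replicate 2 and at 0.32 and 0.21 in replicate 1. Each of these signs held under all 5 scalings tried, namely TPM centred or not, TMM, DESeq2 size factors and the read-based table. Those of Snhg1 and Dancr changed with the scaling in every replicate, as did those of Gas5 and Snhg12 in replicate 1, Snhg8 in replicate 2 and Snhg3 in replicate 3. The scaling without centring moves detected protein-coding genes by 0.23, -0.14 and -0.09. Without centring 7 hosts were highest in replicate 1, as were 75.9% of detected genes, and 7 were lowest in replicate 3, as were 41.3%.

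**Figure D4:**
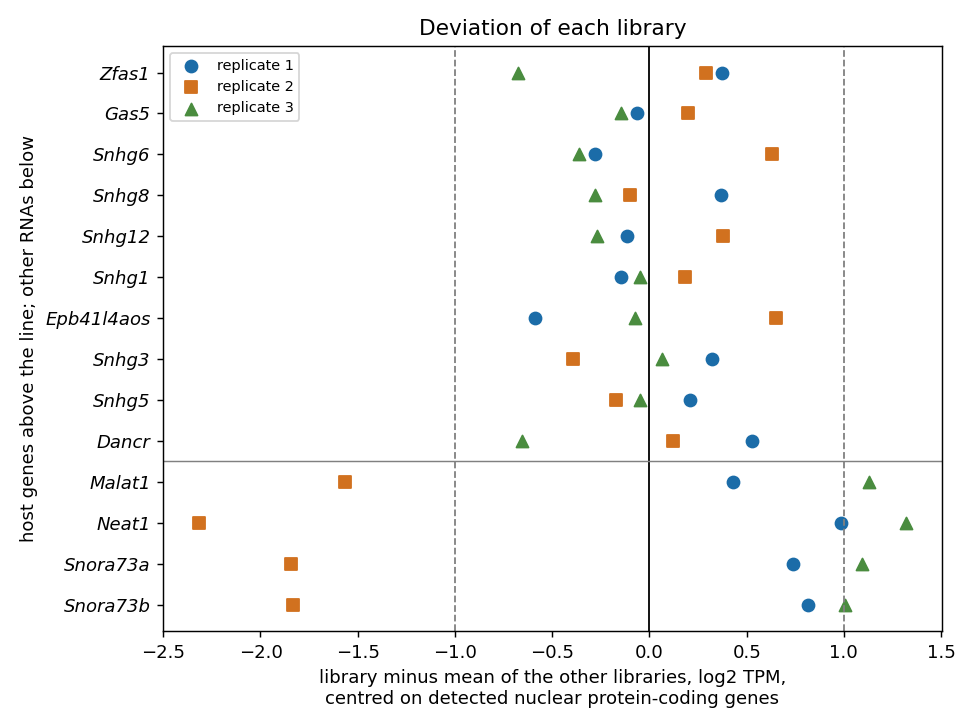
Deviation of each library from the mean of the other libraries in log2 TPM, centred on detected nuclear protein-coding genes, for the 10 host genes (above the line) and for Malat1, Neat1, Snora73a and Snora73b (below it), with dashed lines at -1 and 1. All host points lie between -0.68 and 0.65, whereas the 4 other RNAs lie between -2.32 and -1.57 in replicate 2.

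The spread between replicates beyond counting error, as the biological coefficient of variation from edgeR, had a median of 0.221 over the 9 hosts that passed the filter on counts, which left out Dancr. It was 0.144 over 12752 genes. It was lowest for Gas5, at 0.101, and highest for Epb41l4aos, at 0.311. Set beside the trend for genes of the same abundance, 7 of the 9 lay below it. Zfas1, at 0.177 with a trend of 0.122, and Snhg6, at 0.221 with a trend of 0.192, lay above it. The share of all genes below their trend was not counted, and the edgeR estimate draws each value toward the trend. The count of hosts below it is therefore a description only. No test of the difference was made.

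Transcripts annotated as retaining an intron differed in share between libraries, in the hosts as in most detected genes that have them. Of the 83 annotated transcripts of the 10 hosts 44 are of this class, in 6 of the hosts. Summed over the 5 of these that were detected they held 7.46%, 4.07% and 14.7% of TPM in replicates 1, 2 and 3. Gas5 had 6.72%, 3.37% and 14.5%, and Zfas1 had 7.77%, 4.01% and 13.3%. Snhg1 had 12.1%, 7.07% and 31.4%, and Snhg8 5.71%, 3.05% and 8.39%. In these 4 the share was lowest in replicate 2 and highest in replicate 3, and Snhg5, at 10.1%, 14.2% and 18.3%, was lowest in replicate 1. Thus 4 of 5 were lowest in replicate 2, where 78.1% of 5615 detected genes with such transcripts were, and 5 of 5 were highest in replicate 3, where 63.0% were. The median share over those genes was 4.72%, 1.72% and 5.96%. Summed, as for the hosts, over 5795 detected genes it was 7.45%, 5.41% and 7.75%. The read-based table gave the same library order in each of the 5 hosts. Without these transcripts Snhg1 had 6.30, 6.57 and 4.45 TPM in place of 7.18, 7.06 and 6.48, so that the evenness of the gene total came with opposite moves of its parts. These parts rest on few counts. In replicate 3 the retained-intron transcripts of Snhg1 held 2.04 TPM, of which 0.76 was Snhg1-209, on 4.77 expected counts. That transcript was at 0 in replicates 1 and 2.

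**Figure D5:**
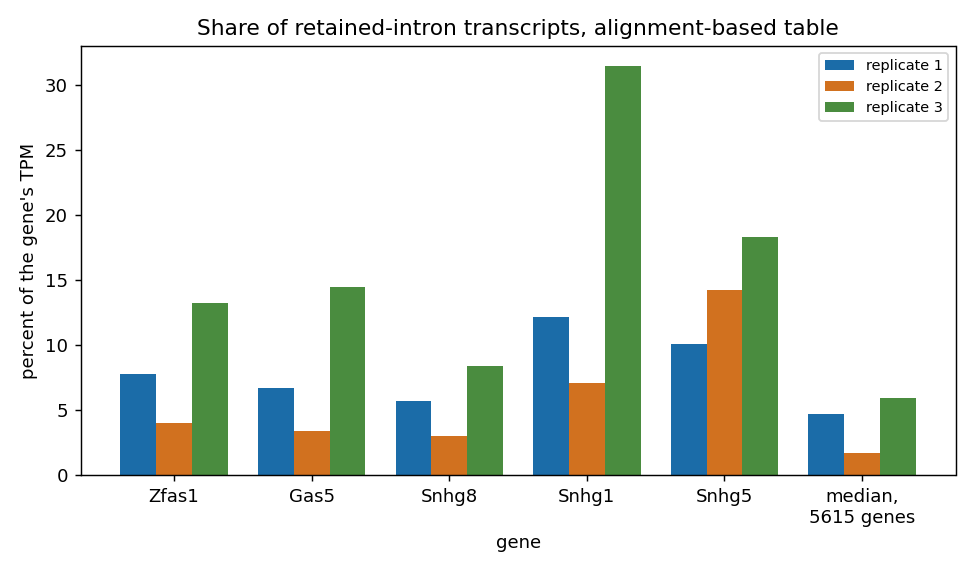
Share of the TPM of a gene, in percent, that falls on transcripts annotated as retaining an intron, for the 5 detected hosts that have such transcripts and as the median over 5615 detected genes, with 1 bar per library. Replicate 3 has the highest bar in every group, and replicate 2 the lowest except in Snhg5.

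Related genes were described from lists. Of 8 matched other snoRNA hosts listed as non-coding 2 were detected, Snhg15 at 4.38 ± 1.23 TPM and Snhg17 at 1.34 ± 0.257 TPM. The annotation types 1 of these 8, which was not detected, as protein-coding. Snhg20 had 1.11, 0.44 and 1.99 TPM, and Snhg9 had 3.87, 0 and 0 TPM, from 3 counts in replicate 1. Snhg20 deviated by -1.62 in replicate 2 and 1.60 in replicate 3, on 21 to 78 counts. All 30 listed protein-coding snoRNA hosts were detected, at a median of 7.19 (log2). They were led by Tpt1 at 646 ± 167 TPM, which encodes the translationally controlled tumour protein, the chaperone gene Hspa8 at 564 ± 78.2, and the ribosomal protein genes Rps12 at 350 ± 50.6 and Rpl10 at 328 ± 39.3. Tpt1, like Zfas1, was lowest in replicate 3, with deviations of 0.25, 0.33 and -0.59.

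RNAs of the proteins that snoRNAs bind were mostly detected, and protein was not measured. Of 16 genes of snoRNP proteins and their assembly 15 were detected, and Shq1 was under 1 TPM in each library. The median of the 16 was 2.41 (log2), against 3.22 over all detected genes. Snu13 had 14.1 ± 0.614 TPM and Nop56 12.6 ± 0.244, both of the box C/D particle, Nhp2 of the box H/ACA particle 11.5 ± 0.502, and Nop58 of the box C/D particle 11.3 ± 1.71. Nop56 is also a host and a member of the list above. All 9 genes listed for the control of pyrimidine-run mRNAs were detected, with a median of 3.11 (log2). They were led by Pabpc1 at 214 ± 16.5 TPM and Cnbp at 37.4 ± 2.18, followed by Larp1, which binds the start of such mRNAs, at 27.4 ± 3.92 and the translation inhibitor gene Eif4ebp2 at 9.597 ± 1.44. Zfas1 and Gas5 thus lay above each of the snoRNP genes and Snhg3 and Snhg5 below the 4 named here, all as levels in TPM.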

How the data were processed

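Cytosolic total RNA, depleted of ribosomal RNA, was measured in 3 libraries of 1 group, each with 3 tables. The deposited gene and transcript tables give expected counts, TPM and FPKM made by the authors from transcriptome alignments, in the column layout of RSEM per the file headers. The deposited read-based table gives estimated counts and TPM in the layout of kallisto per the file headers. Accompanying text names mm10 and annotation M21; no source used here names the aligner or the quantifiers. The deposited TPM depends on every abundant RNA of a library.

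Members were matched by symbol, and rows that name no gene (0.104% to 0.356% of expected counts) were left out. Members, lists, tests and the rule for named genes (all members, transcripts with 10% or more of a member's TPM, divergent neighbours, the 4 highest genes of each list, the 5 highest snoRNA genes in members, Malat1 and Neat1) were chosen with earlier results of these data known, and support nothing independently. A gene of these lists is not reported here. With 1 group no test between groups was made. Counts were rounded to whole numbers for edgeR 4.0.16 (R 4.3.3; TMM, filterByExpr, intercept only, tagwise dispersion), and DESeq2 1.42.0 was an alternative. The edgeR step was tested on simulated data: counts of 13366 genes, all with a coefficient of variation of 0.2, gave a common value of 0.197. The values of single genes, which are those reported above, were not tested in this way. Retained-intron shares, the junction share over long non-coding genes, TMM-scaled counts of snoRNAs and the naming of all listed nuclear RNAs were added after the data were seen. Depth is 38197192 to 46327891 expected counts. Python 3.11.15, pandas 2.3.3 and matplotlib 3.10.9 were used.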

Additional observations from a re-analysis of the deposited data

How the results depend on the processing

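No paired analysis was possible because the 3 libraries form 1 group. The count of detected hosts stayed within 1.5 times of 9 under the thresholds, tables and left-out libraries tried. The median level on the log2 scale depended on the unit: 2.92 with a pseudocount of 0.1, 1.96 in the read-based table, 4.71 with TPM rescaled over protein-coding genes and 3.71 as FPKM. Nuclear protein-coding genes held 10.7% to 12.9% of TPM in the read-based table, against 27.7% to 33.3% in the gene tables. Counts lay closer than TPM for the hosts with more counts. Zfas1 had 2113, 2349 and 1390 read-based counts against 1925, 2199 and 1257. Snhg6 had 339, 593 and 322 against 297, 546 and 289. Dancr, on few counts, differed more. The part of the unlike totals in the shift of level was not tested. All 10 hosts moved beyond their own SD in the read-based table, and none did when a library was left out. Leaving out 1 of 3 libraries cannot move a mean by more than the SD of those libraries, so that outcome was fixed. The same holds for the retained-intron share with a library left out, so neither shows stability. Separated neighbours numbered 5 with rescaled TPM and 5 to 6 with a library left out. The median deviation of replicate 1 was 0.31 with no centring, and the median ratio to divergent neighbours was -0.45 with a pseudocount of 0.1. The other 45 alternative values stayed within 1 SD or 1.5 times of the count. They cover spread, leading transcripts, snoRNA counts, retained introns and the rest of these measures. For the biological coefficient of variation the SD was that over the hosts. For the median deviations it was the median SD of the hosts, 0.23, so the shifts of replicates 2 and 3 with scale given above fell inside it. That SD is larger than the main median deviations themselves, 0.07, 0.19 and -0.21 in replicates 1, 2 and 3. A shift to 0 would thus also count as within 1 SD, so for these medians the label does not show stability. Alternatives for the retained-intron share were chosen after seeing the data. With 1 treatment and 3 libraries no response, and no difference from untreated cells, can be read from any value. Snhg3, Epb41l4aos and Dancr rest on at most 129 counts a library, and snoRNAs of the lengths annotated here are largely outside what these libraries measured.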
